A study of Mus musculus with 80 samples.

Results

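The comparison described here sets 20 mammary tumours from MMTV-Myc mice that are E2F2 null against 20 tumours from MMTV-Myc mice that are wild-type for the E2F genes, 40 of the 80 arrays of the series. The members were taken by their labelled genotype, with no measured value used to choose them. The other 40 arrays, 20 E2F1 null and 20 E2F3 heterozygous tumours, enter the model fit and serve as further comparisons. All mice are FVB, and every tumour, the wild-type ones included, carries the Myc transgene, which is driven by the promoter of the mouse mammary tumour virus and is therefore active mainly in mammary epithelium. Tumours were collected and frozen when the primary tumour reached its endpoint, and total RNA of the whole tumour was hybridised, so each value mixes tumour cells with stroma, vessels and immune cells. In such bulk samples, fewer cells of a type and less RNA per cell cannot be told apart. The labels state neither the age of the mice nor the exons missing from the E2F2 null allele. The samples' titles carry a number before a hyphen that several tumours share. The 20 E2F2 null tumours carry 11 such numbers and the 20 wild-type tumours 16. The labels do not define this number, and tumours sharing it were treated as related.

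E2F2 is a transcription factor of the E2F family. With a DP partner it binds the promoters of genes for DNA replication and cell division, and in resting cells the retinoblastoma family of pocket proteins holds it and its activating relatives silent until cyclin-dependent kinases phosphorylate those proteins. Myc induces several E2F genes, and excess Myc or E2F activity also engages p53 through the tumour suppressor encoded by Cdkn2a. E2f2 lies on mouse chromosome 4, so that genes near it may be inherited together with the null allele in a cross, and genes of that chromosome are therefore described apart from all others.

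Each value is a log2 of the deposited MAS5 signal plus 5, where MAS5 is Affymetrix's algorithm that turns a probe set's brightness into an expression value and scales each array to a common mean. A uniform change in total mRNA per cell therefore cannot be seen. Of 12393 genes with a probe set of their own, 8769 were bright enough to be tested (signal above 74.6, the 40th percentile of all values, on at least 10 arrays). A difference was called where limma's adjusted p was under 0.05, and the median SE of a log2 difference was 0.12. No probe set was named E2f2, so the level of the targeted gene is not analysed here and could not be used to check the labels. As for tissue identity, luminal keratins and Epcam were measured in both genotypes, and the log2 difference was 0.09 (SE 0.13) for Krt8 and −0.04 (SE 0.11) for Epcam, neither of which passed the test. Myc, whose level includes the transgene where the probes match it, ranged from 12.79 to 13.92 with a median of 13.56 in E2F2 null tumours, and from 12.95 to 13.74 with a median of 13.52 in wild-type tumours. The groups overlapped almost throughout, and the difference was 0.07 (SE 0.09, adjusted p = 0.895).

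Only 2 of the 8769 genes passed the test, which is 0.0228% of those tested, and both lie on chromosome 4 close to E2f2. Pnrc2, a nuclear receptor coactivator that also takes part in mRNA decay, fell in E2F2 null tumours, and Pink1, a kinase that flags damaged mitochondria for degradation, rose. Away from chromosome 4, none of 8220 genes (0%) passed the adjusted threshold by limma, and 493 had an unadjusted p under 0.05, which is 6% of them. Genes of the replication and mitosis machinery were mostly a little higher in E2F2 null tumours, p53 target genes mostly a little lower and interferon-induced antiviral genes mostly higher, but none of these genes passed the test individually.

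The promoters below show the genes that changed, and a gene from each of the replication, mitosis and interferon groups. For each group this was the gene with the smallest p among members higher in E2F2 null tumours whose promoter holds the motif searched. The promoters come from RefSeq on GRCm38.p6, run from 250 bases before to 50 bases after the gene's start, and read 5′ to 3′ on the gene's own strand. Capitals mark the motif searched for that gene, which for Pnrc2 and Pink1 was the E2F-type only. The deposited values carry no genome build of their own.
Pnrc2 (chr4:135873797-135874096, minus strand): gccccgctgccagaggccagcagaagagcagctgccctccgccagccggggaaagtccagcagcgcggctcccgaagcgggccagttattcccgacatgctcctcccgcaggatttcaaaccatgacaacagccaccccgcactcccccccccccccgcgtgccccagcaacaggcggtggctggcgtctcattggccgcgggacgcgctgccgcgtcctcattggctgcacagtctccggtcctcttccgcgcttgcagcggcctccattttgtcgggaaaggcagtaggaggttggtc
Pink1 (chr4:138326247-138326546, minus strand): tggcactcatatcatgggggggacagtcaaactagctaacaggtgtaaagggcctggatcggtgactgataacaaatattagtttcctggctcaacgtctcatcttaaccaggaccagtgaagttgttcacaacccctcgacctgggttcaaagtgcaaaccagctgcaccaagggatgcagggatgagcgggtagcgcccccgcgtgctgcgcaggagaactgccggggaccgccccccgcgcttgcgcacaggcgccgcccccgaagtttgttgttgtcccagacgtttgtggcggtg
Topbp1 (chr9:103305077-103305376, plus strand): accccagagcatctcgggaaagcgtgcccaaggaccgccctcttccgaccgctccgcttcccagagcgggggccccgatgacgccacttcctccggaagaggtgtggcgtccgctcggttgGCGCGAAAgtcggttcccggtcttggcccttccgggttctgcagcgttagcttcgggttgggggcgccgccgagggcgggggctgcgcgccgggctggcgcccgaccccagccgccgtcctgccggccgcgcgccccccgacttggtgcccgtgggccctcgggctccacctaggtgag
Plk1 (chr7:122159185-122159484, plus strand): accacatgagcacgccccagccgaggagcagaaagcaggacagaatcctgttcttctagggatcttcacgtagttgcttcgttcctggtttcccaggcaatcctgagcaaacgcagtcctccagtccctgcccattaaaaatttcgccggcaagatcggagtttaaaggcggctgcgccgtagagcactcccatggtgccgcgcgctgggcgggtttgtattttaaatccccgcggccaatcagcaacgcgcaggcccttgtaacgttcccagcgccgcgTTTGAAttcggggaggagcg
Bst2 (chr8:71537423-71537722, minus strand): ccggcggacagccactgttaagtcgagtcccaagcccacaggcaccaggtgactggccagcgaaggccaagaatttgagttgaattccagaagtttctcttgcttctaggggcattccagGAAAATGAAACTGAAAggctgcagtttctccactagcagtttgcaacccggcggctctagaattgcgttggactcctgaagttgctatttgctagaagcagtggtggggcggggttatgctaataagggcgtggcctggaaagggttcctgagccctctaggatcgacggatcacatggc
In the Topbp1 promoter the capitals mark an E2F-type motif, starting 129 bases before the gene's start. In the Plk1 promoter they mark a CHR element, 30 bases after the start, and in the Bst2 promoter 2 overlapping ISRE-type motifs, the first of them 130 bases before the start. E2F-type motifs were searched as TTTCCCGC, TTTGGCGC, TTTCGCGC or TTTGCCGC, the CHR (cell cycle homology region, a G2/M promoter element) as TTTGAA, and the ISRE-type (interferon-stimulated response element) as GAAA, any 2 bases and GAAA, each on both strands. The E2F-type letters were in 2.26% of the 32851 promoters of the table, the CHR letters in 17.9% and the ISRE-type letters in 3.44%. The Pnrc2 and Pink1 promoters hold none of the E2F-type letters in this window. Both hold the CHR letters, read as TTCAAA on the printed strand and left in lower case. Among tested genes with a promoter in the table, the E2F-type letters were in 18 of 48 replication genes (37.5%) against 349 of all 7104 (4.91%). The CHR letters were in 38 of 56 mitosis genes (67.9%) against 13.9% of all, and the ISRE-type letters in 25 of 77 interferon genes (32.5%) against 3.91% of all. A match is a description of the sequence and not a bound site.

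Pnrc2 starts 0.3 Mb from E2f2. Its log2 level ranged from 10.17 to 10.90 with a median of 10.50 in E2F2 null tumours, and from 10.71 to 11.38 with a median of 11.19 in wild-type tumours. Of the 20 E2F2 null tumours, 17 lay below every wild-type tumour. By title number, 10 of the 11 E2F2 null means lay below the lowest of the 16 wild-type means. The log2 difference was −0.62 (SE 0.08, limma adjusted p = 2.66e-08), a 1.54-fold lower signal. The fall was also present against the other mutant backgrounds, with log2 differences of −0.65 against E2F1 null tumours (median 11.23) and −0.59 against E2F3 heterozygous tumours (median 11.13), both past the adjusted threshold. These comparisons share the E2F2 null tumours. Pnrc2 has a second probe set, which differed by −0.27 and did not pass the test (adjusted p = 0.717).

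Pink1 starts 2.1 Mb from E2f2. It ranged from 8.26 to 9.93 with a median of 9.17 in E2F2 null tumours, and from 7.68 to 8.98 with a median of 8.54 in wild-type tumours. The groups overlapped, with 15 of 20 E2F2 null values exceeding all wild-type values and 9 of 11 title-number means above the highest wild-type mean. The log2 difference was 0.68 (SE 0.12, limma adjusted p = 0.000726), a 1.61-fold higher signal. Pink1 was also higher in E2F2 null tumours by 0.59 against E2F1 null tumours and by 0.65 against E2F3 heterozygous tumours, both past the threshold.

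**Figure D1:**
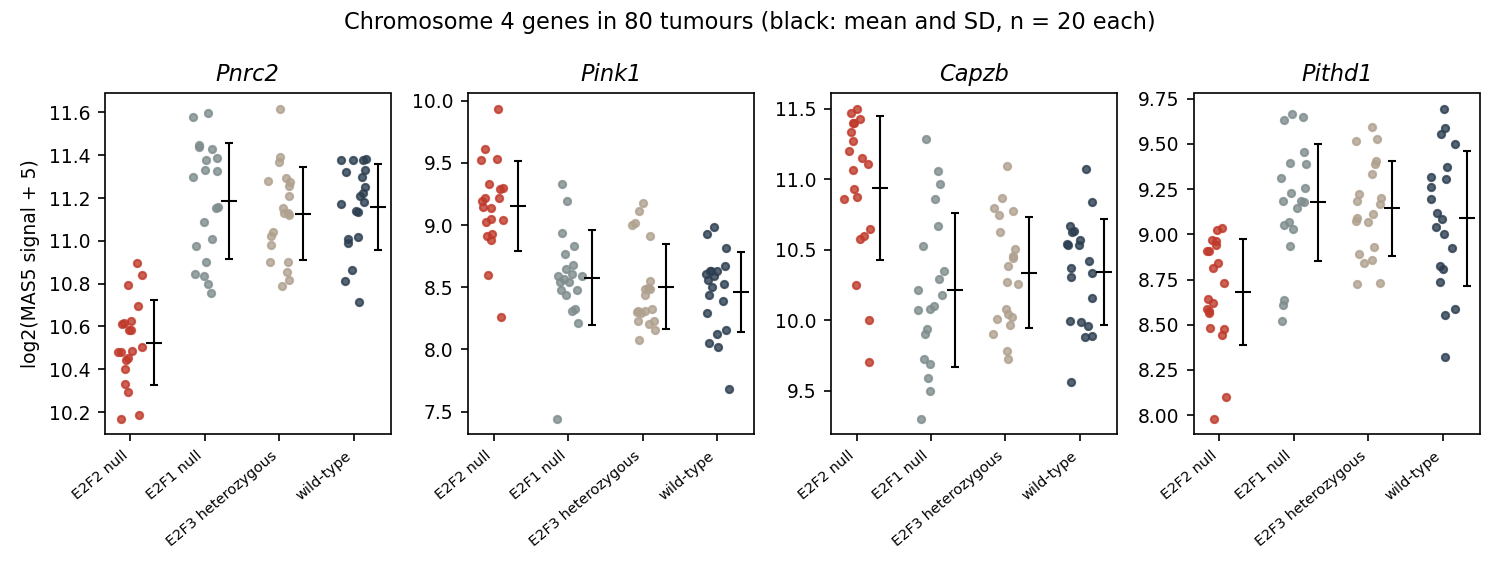
Log2(MAS5 signal + 5) of 4 chromosome 4 genes in each tumour, by genotype, with the mean and SD at the right of each group (n = 20 each). In E2F2 null tumours, 17 of 20 Pnrc2 values lie below, and 15 of 20 Pink1 values above, every wild-type tumour, while the Capzb and Pithd1 groups overlap more.

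Other genes close to E2f2 differed without passing the test. Capzb, the beta subunit of the actin capping protein, ranged from 9.70 to 11.50 (median 11.09) in E2F2 null tumours and from 9.56 to 11.08 (median 10.40) in wild-type tumours. Although 10 E2F2 null values exceeded all wild-type values, the groups spanned much of the same range, and the difference of 0.58 (SE 0.15) did not pass the test (adjusted p = 0.521). All 3 Capzb probe sets ran the same way, from 0.41 to 0.58. Pithd1, a protein with a PITH domain, ranged from 7.98 to 9.04 (median 8.69) in E2F2 null tumours and from 8.32 to 9.69 (median 9.10) in wild-type tumours, a difference of −0.40 (SE 0.11, adjusted p = 0.521). Against E2F1 null tumours both passed the test, with log2 differences of 0.70 for Capzb and −0.49 for Pithd1, and so did Aldh4a1, a mitochondrial enzyme of proline breakdown, at −0.56. Against wild-type, Aldh4a1 differed by −0.47 (SE 0.13) and its wild-type median of 6.63 was close to the filter value of 6.31. Selenon, a selenoprotein of the endoplasmic reticulum, differed by −0.45 (SE 0.13), the kinase gene Pdik1l by 0.32 (SE 0.10) and the chloride channel protein gene Clic4 by 0.23 (SE 0.08), none of them past the threshold. The 3 probe sets of Pdik1l spanned 0.32 to 0.38, and those of Clic4 0.06 to 0.34. Farther away on the chromosome, the ceramidase gene Acer2, 49.3 Mb from E2f2, differed by −0.64 (SE 0.21), and Stil, a centriole duplication gene 21.2 Mb away, by 0.38 (SE 0.13).

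The share of genes with an unadjusted p under 0.05 fell off with distance from E2f2. It was 21 of 96 genes within 5 Mb (21.9%), against 6.14% of all tested genes. It was 4 of 49 genes from 5 to 10 Mb (8.16%), 7 of 147 from 10 to 20 Mb (4.76%) and 13 of 257 beyond 20 Mb (5.06%). Over the whole of chromosome 4 it was 45 of 549 genes (8.2%), and 2 (0.364%) passed the adjusted threshold. Of the 21 genes within 5 Mb, 8 were higher and 13 lower in E2F2 null tumours, so that the region did not shift one way, and the median over all 96 was −0.04. All 5 chromosome 4 genes with an unadjusted p under 0.001, a level reached by 0.125% of all tested genes, lay within 5 Mb. Besides those named, the 21 held the cytidine deaminase gene Cda (0.93, SE 0.33) next to Pink1, and the peptidylarginine deiminase genes Padi4 (−0.84, SE 0.30) and Padi3 (−0.88, SE 0.44). The choice of these 3 was made with their values in view. Among the promoters of the 21, all of them in the table, the E2F-type letters were in 1 (4.76%), near the 4.91% of all tested genes. The CHR letters were in 6 (28.6%, against 13.9% of all) and the ISRE-type letters in 1 (4.76%, against 3.91% of all). The labels give neither the strain in which the null allele was made nor the length of chromosome inherited with it, and their part in these differences was not tested.

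**Figure D2:**
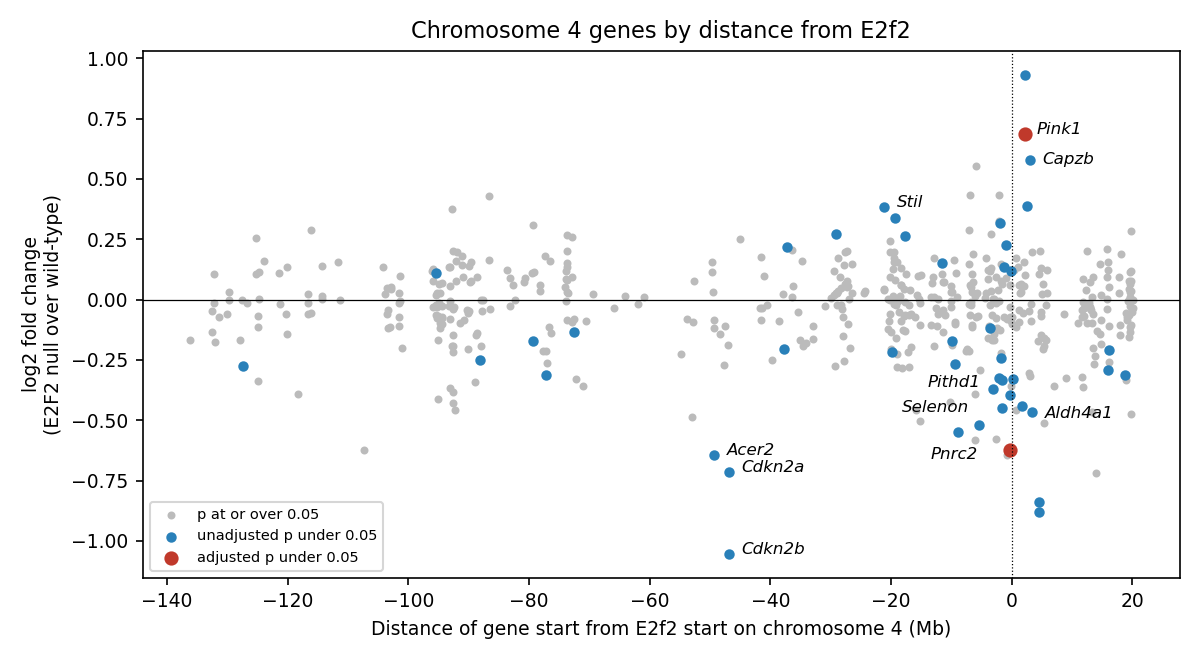
Log2 fold change (E2F2 null over wild-type) of each of 549 tested chromosome 4 genes against the distance of its start from the start of E2f2, in Mb (RefSeq GRCm38.p6). Both genes past the adjusted threshold (red) lie within 5 Mb of E2f2, where 21 of 96 genes have an unadjusted p under 0.05, in both directions.

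Tested singly, 6 of 15255 probe sets passed the threshold (0.0393%). They were those of Pnrc2 and Pink1, 1 probe set each of Cdc42, Mul1 and Eloa, all 3 also within 5 Mb of E2f2, and 1 probe set with no single gene name, which differed by 0.45 (adjusted p = 0.0075). For Cdc42, a small GTPase of cell polarity, the called probe set ranged from 11.78 to 12.26 (median 11.98) in E2F2 null tumours and from 11.13 to 12.13 (median 11.56) in wild-type tumours. Its difference was 0.43 (adjusted p = 0.000161), whereas the other 3 Cdc42 probe sets differed by 0.09, −0.04 and −0.09. For Mul1, a mitochondrial E3 ligase, the called probe set had a median of 6.30 in E2F2 null tumours and 5.70 in wild-type tumours, with 16 of 20 E2F2 null values exceeding all wild-type values. It differed by 0.82 (adjusted p = 0.000413) and its brighter partner by 0.10. The medians of the called Mul1 probe set lay at or below the filter value of 6.31. For Eloa, a subunit of the elongin transcription elongation complex, the called probe set differed by 0.51 (adjusted p = 0.00282) and the others by −0.09 and 0.21. Sequence differences under the probes were not tested.

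Away from chromosome 4, the gene closest to the threshold was Csgalnact2, which helps to build chondroitin sulfate chains. It ranged from 8.19 to 9.32 (median 8.52) in E2F2 null tumours and from 8.36 to 9.77 (median 9.11) in wild-type tumours. Of the 20 E2F2 null tumours, 6 lay below all wild-type values, and the difference was −0.49 (SE 0.12, adjusted p = 0.207). It passed only when the wild-type tumour with title number 3894 was left out (−0.53, adjusted p = 0.0497). The next genes by p were Emc3, of the membrane protein insertion complex of the endoplasmic reticulum (−0.30, SE 0.08), Washc2, of the WASH complex of endosomes (−0.32, SE 0.09), C130026I21Rik (1.09, SE 0.31, with medians below the filter value in both genotypes) and Wnk1, a kinase that regulates ion transport (−0.26, SE 0.08). The bromodomain gene Brwd1, Arhgap35, Dennd11, Fam193b and the coactivator subunit gene Tada3 followed with differences from −0.43 to −0.33. None of these passed the test.

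Of those 10 genes, 6 lie on chromosome 6: Csgalnact2, Emc3, Washc2, Wnk1, Dennd11 and Tada3. The chromosome as a whole stood apart from the others. The median log2 difference of its 459 tested genes was −0.15, against −0.01 for all genes, and 71 of them (15.5%) were higher in E2F2 null tumours, against 46.3% of all genes. An unadjusted p under 0.05 was reached by 83 of the 459 (18.1%), 82 of them lower. The next largest shifts by chromosome were −0.06 for chromosome 18 and 0.06 for chromosome 15, and chromosome 4 had a median of −0.02. Per tumour, the mean centred level of chromosome 6 genes ranged from −0.25 to 0.19 with a median of −0.17 in E2F2 null tumours, and from −0.28 to 0.36 with a median of 0.11 in wild-type tumours. Both genotypes held tumours at the low and at the high end, the E2F2 null tumours lying mostly at the low end. The medians of E2F1 null tumours, 0.01, and of E2F3 heterozygous tumours, −0.04, lay between. With this level as a covariate, the differences became −0.31 for Csgalnact2 and −0.17 for Emc3. The log2 differences of several genes on other chromosomes also shrank, as given beside them. The level averages all tested chromosome 6 genes, Csgalnact2 and Emc3 included, so theirs shrink in part by construction. It also differs between the genotypes, so the covariate can take up part of the genotype difference of any gene.

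**Figure D3:**
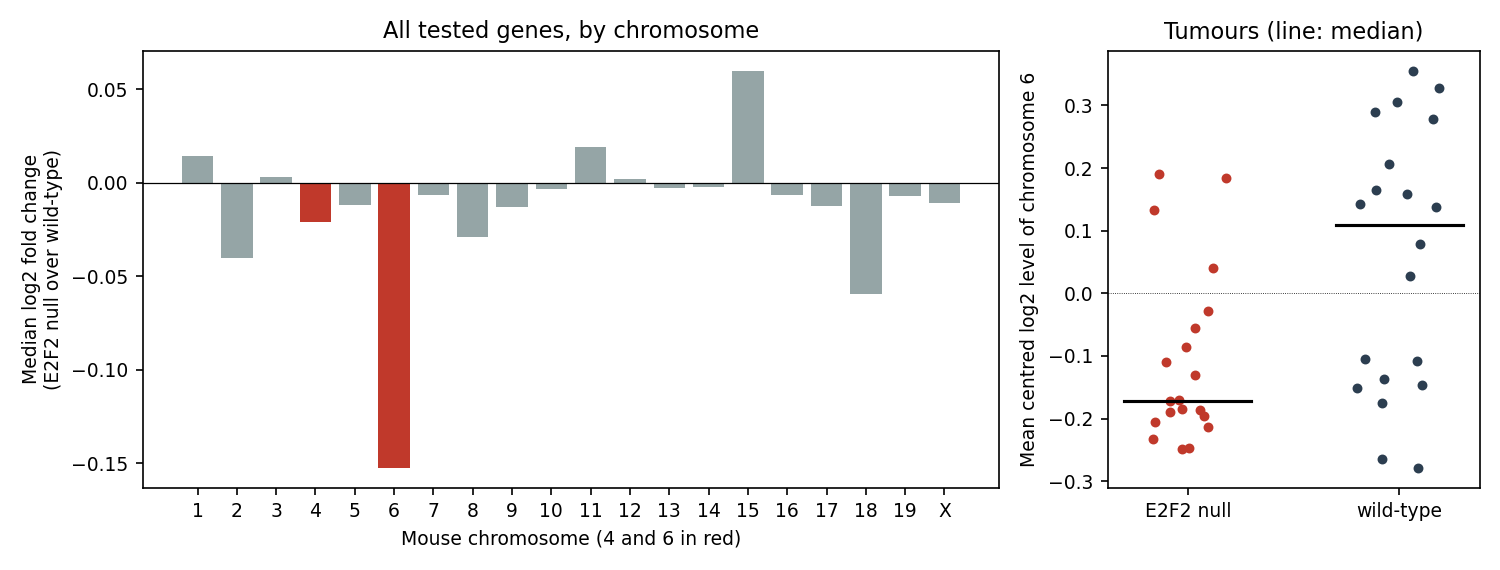
Left, median log2 fold change (E2F2 null over wild-type) of all tested genes of each chromosome with at least 100 of them. Right, mean centred log2 level of chromosome 6 genes in each tumour, with the group median as a line. Chromosome 6 has a median of −0.15, and its level is low in most E2F2 null tumours (median −0.17) and spread over the whole range in wild-type tumours (median 0.11).

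The remaining E2F family and its partners differed little between the genotypes. Of 17 genes listed, 12 were tested, 9 of them above 0 and 3 below, where 46.3% of all genes were above 0. Their median was 0.05, and none had an unadjusted p under 0.05. E2f1 ranged from 6.73 to 7.60 (median 7.13) in E2F2 null tumours and from 6.53 to 7.63 (median 7.11) in wild-type tumours. The E2f1 groups overlapped throughout, and the difference was −0.018 (SE 0.11). E2f3, the other main activator, differed by 0.14 (SE 0.12) and the late repressor E2f8 by 0.09 (SE 0.12). The DP partner Tfdp1 differed by 0.11 (SE 0.09), and the pocket protein genes Rb1 by 0.31 (SE 0.28) and Rbl1 by 0.14 (SE 0.10). Rb1 had the widest error of these, and its difference was 0.06 with the chromosome 6 level as a covariate. Its tumours ranged from 8.52 to 11.80 in the E2F2 null group and from 8.28 to 11.53 in the wild-type group.

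Among the G1 cyclins and kinases, 6 of 11 tested genes were above 0, against 46.3% of all genes, and the median was 0.04. Skp2, which targets CDK inhibitors for destruction, differed by 0.24 (SE 0.16), Cdk2 by 0.13 (SE 0.09) and cyclin D3 (Ccnd3) by 0.09 (SE 0.07). Cyclin E1 (Ccne1) differed by −0.28 (SE 0.15) and cyclin D2 (Ccnd2), on chromosome 6, by −0.63 (SE 0.39). The inhibitors of these kinases varied more from tumour to tumour. Of 7 tested, 3 were above 0 and 4 below, with a median of −0.09, and Cdkn1c differed by 0.14 (SE 0.37). Cdkn2b, which encodes p15 and lies 46.9 Mb from E2f2 on chromosome 4, ranged from 3.96 to 8.56 (median 7.25) in E2F2 null tumours and from 6.09 to 10.91 (median 7.84) in wild-type tumours. The groups overlapped over most of that range, with the highest values in wild-type tumours, and the difference was −1.05 (SE 0.43, adjusted p = 0.788). Its neighbour Cdkn2a, which encodes p16 and Arf, differed by −0.71 (SE 0.35), with medians of 5.12 in E2F2 null tumours and 5.97 in wild-type tumours that lie below the filter value. The p53 target Cdkn1a, which encodes p21, differed by −0.66 (SE 0.42). With the chromosome 6 level as a covariate, Cdkn2b differed by −0.48, Cdkn1a by −0.20 and Ccnd2 by −0.11. Ccnd2 is itself part of that level.

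The replication genes leaned upward in E2F2 null tumours without passing the test. Of 57 tested genes for licensing, origin firing, fork progression and nucleotide supply, 52 were above 0, 15 with an unadjusted p under 0.05 and none below, where 2.17% of all genes were higher and 3.97% lower by that rule. Their median was 0.16, against −0.01 for all genes, of which 46.3% were above 0. Topbp1, which helps to fire origins and to activate the ATR checkpoint, ranged from 10.20 to 11.33 (median 10.51) in E2F2 null tumours and from 9.98 to 10.89 (median 10.41) in wild-type tumours. Only 2 E2F2 null values exceeded all wild-type values, and the difference was 0.22 (SE 0.09, adjusted p = 0.785). The licensing factor Cdt1 differed by 0.26 (SE 0.11) and the helicase subunit Mcm6 by 0.26 (SE 0.12). At the fork, Timeless, which protects stalled forks, differed by 0.25 (SE 0.10), the primase subunit Prim2 by 0.26 (SE 0.11) and the histone chaperone subunit Chaf1b by 0.24 (SE 0.11). For Prim2, 8 of 20 E2F2 null values exceeded all wild-type values, and 0.411% of all genes had at least 8 of 20 beyond the wild-type range on either side. Thymidylate synthase, Tyms, ran the other way at −0.23 (SE 0.13).

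Mitosis genes followed the same pattern. Of 69 tested, 64 were above 0, 10 with an unadjusted p under 0.05 and none below, with a median of 0.17. By that rule 2.17% of all genes were higher and 3.97% lower, and 46.3% of all genes were above 0 at any p. Plk1, the kinase that drives mitotic entry and spindle assembly, ranged from 9.01 to 9.94 (median 9.31) in E2F2 null tumours and from 8.24 to 9.77 (median 8.95) in wild-type tumours. The lowest values were all in wild-type tumours while the upper ends met, and the difference was 0.36 (SE 0.12, adjusted p = 0.752). The APC/C activator Fzr1 differed by 0.23 (SE 0.09) and securin (Pttg1) by 0.21 (SE 0.10). Among cytokinesis genes, Kif20a differed by 0.34 (SE 0.16), Racgap1 by 0.38 (SE 0.18) and Ect2 by 0.28 (SE 0.14). The per-tumour mean centred level of the 69 genes ranged from −0.22 to 0.50 (median 0.11) in E2F2 null tumours and from −0.81 to 0.45 (median −0.02) in wild-type tumours. The spread differed mainly at the low end. The lowest tumour, wild-type with title number 4033 at −0.81, also had the highest MHC class II marker level of the 40 (3.14) and a macrophage marker level of 1.07. The wild-type tumour with title number 3885, at −0.60, had the highest macrophage level (1.97). The next lowest, wild-type with title number 3872 at −0.54, had a macrophage level of 0.11 and an MHC class II level of −0.65. Without the tumour numbered 4033 the median of the mitosis genes was 0.13. Repair genes, several of them regulated with replication, had a median of 0.11, with 33 of 35 above 0. With an unadjusted p under 0.05, 2 of the 35 were higher and none lower. The higher members with the smallest p were Brca2 (0.24, SE 0.11), the Fanconi anaemia gene Fanci (0.31, SE 0.14) and the helicase gene Blm (0.25, SE 0.13). The p53-binding protein gene Trp53bp1 differed by −0.22 (SE 0.11).

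**Figure D4:**
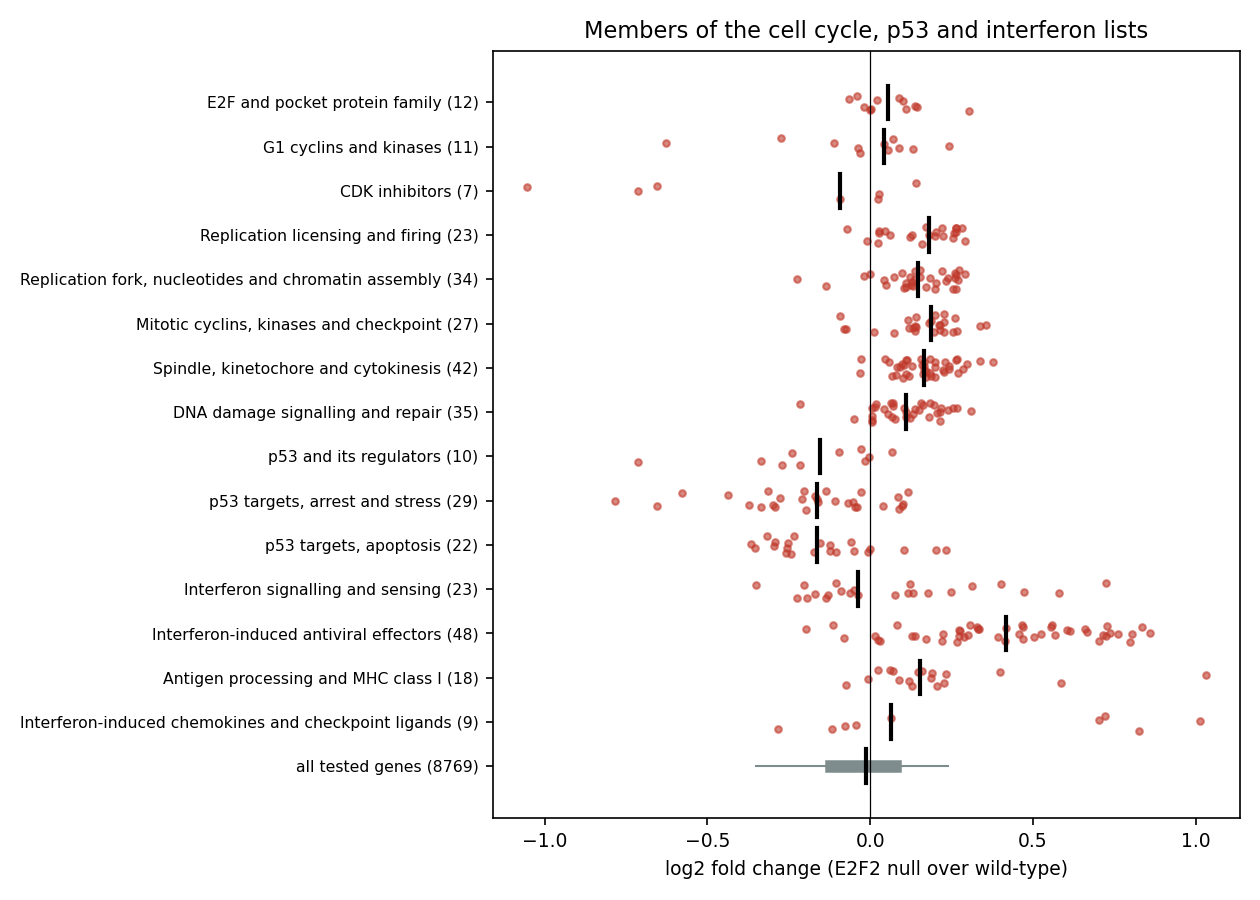
Log2 fold change (E2F2 null over wild-type) of each tested member of 15 gene lists, with the list's median as a black bar and the number tested in parentheses. The grey bar spans the 25th to 75th percentile and the grey line the 5th to 95th percentile of all tested genes. Replication, mitosis and antiviral genes lie mostly right of 0 and p53 targets mostly left, and no member of these lists passed the adjusted threshold.

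Genes of the p53 response leaned the other way. p53 is a transcription factor that answers DNA damage and oncogene stress by halting the cycle or inducing apoptosis. Of 51 tested p53 targets, 42 were below 0, and the median was −0.16. An unadjusted p under 0.05 was reached by 5 of those 42 and by none above 0. Of all tested genes, 3.97% were lower and 2.17% higher by that rule, and 46.3% were above 0 at any p. Gadd45a, which arrests cells in G2 after damage, ranged from 6.76 to 8.996 (median 7.71) in E2F2 null tumours and from 7.30 to 11.07 (median 8.27) in wild-type tumours. The highest values were all in wild-type tumours, but the bulk of both groups overlapped, and the difference was −0.78 (SE 0.31, adjusted p = 0.769). The other arrest and stress genes named by p were Ei24, which encodes a protein of the endoplasmic reticulum (−0.16, SE 0.07), and the damage-bypass polymerase gene Polk (−0.37, SE 0.19). Among apoptosis genes, the TNF receptor gene Tnfrsf1a differed by −0.29 (SE 0.12), Pdrg1 by −0.32 (SE 0.13) and the pro-apoptotic gene Siva1 by −0.37 (SE 0.17). Wild-type values of Siva1 reached 12.97 with a median of 9.75, and without wild-type title number 3451 its difference was −0.20. Tob1, an antiproliferative gene of the same list, ran the other way at 0.23 (SE 0.16). Of 10 tested genes for p53 and its regulators, 9 were below 0, among them Cdkn2a and the p53 kinase gene Hipk2 (−0.24, SE 0.12), with a median of −0.16. Gadd45a, Tnfrsf1a and Hipk2 lie on chromosome 6. In all, 4 of the 51 targets lie there, all of them lower, and the 40 targets on neither chromosome 4 nor 6 had a median of −0.14. With each tumour's chromosome 6 level as a covariate, the median of the 51 targets was −0.07, that of the regulators −0.03, and the differences were −0.32 for Gadd45a, −0.07 for Tnfrsf1a, −0.09 for Hipk2, −0.13 for Pdrg1 and −0.15 for Polk. Gadd45a, Tnfrsf1a and Hipk2 are themselves part of that level. The same covariate left the replication median at 0.17 and the mitosis median at 0.16.

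Interferons signal through JAK kinases and STAT and IRF factors to switch on antiviral and antigen presentation genes. Of 98 tested interferon genes, 77 were above 0, with a median of 0.24, and 4 were higher and 3 lower with an unadjusted p under 0.05. Over all tested genes 46.3% were above 0, and 2.17% were higher and 3.97% lower by that rule, so the counts by p are near the background. The signalling genes themselves did not share the lean. Of 23 tested, 11 were above 0, and the median was −0.04. The kinase genes Jak2 (−0.35, SE 0.13) and Tyk2 (−0.19, SE 0.07) and the transcription factor gene Irf3 (−0.20, SE 0.06) were the 3 lower ones, none past the adjusted threshold. Within the same list, the RNA sensor Ifih1 differed by 0.47 (SE 0.28), Irf7 by 0.58 (SE 0.38) and the feedback protease Usp18 by 0.72 (SE 0.51). With 1 mean per title number these 3 differed by 0.19 for Ifih1, 0.14 for Irf7 and 0.21 for Usp18. With the chromosome 6 covariate they differed by 0.24 for Ifih1, 0.23 for Irf7 and 0.35 for Usp18. Usp18 lies on chromosome 6 and is itself part of that level.

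The antiviral effectors held most of the upward lean, with 45 of 48 tested genes above 0 and a median of 0.42. Of all tested genes 46.3% were above 0. With an unadjusted p under 0.05, 2 of the 48 were higher and none lower, against 2.17% and 3.97% of all genes. Bst2, or tetherin, which holds budding virions to the cell, ranged from 7.31 to 11.02 (median 8.35) in E2F2 null tumours and from 6.67 to 9.80 (median 7.92) in wild-type tumours. The upper end was held by 5 E2F2 null tumours beyond all wild-type values, the rest overlapped, and by title number none of the 11 E2F2 null means (highest 9.60) exceeded the highest wild-type mean (9.80). The difference was 0.80 (SE 0.31, adjusted p = 0.769). Ifi35 differed by 0.30 (SE 0.15) and the nucleotide hydrolase gene Samhd1 by 0.28 (SE 0.14). In antigen processing, 16 of 18 genes were above 0, with a median of 0.15, and 2 were higher with an unadjusted p under 0.05. Psmb8, an inducible catalytic subunit of the immunoproteasome, ranged from 7.84 to 11.60 (median 9.63) in E2F2 null tumours and from 7.005 to 9.99 (median 9.02) in wild-type tumours. Of the E2F2 null tumours 9 exceeded all wild-type values, and the difference was 1.03 (SE 0.32, adjusted p = 0.725). By title number, 3 of 11 E2F2 null means lay above the highest wild-type mean. Its partner subunit Psmb9 differed by 0.59 (SE 0.26) and the peptide transporter Tap1 by 0.40 (SE 0.22). Interferon-induced chemokines and checkpoint ligands were split, with 5 of 9 tested genes above 0 and 4 below. Their median was 0.06 and the lowest difference −0.28. The chemokines Cxcl11 (1.01, SE 0.60), Cxcl10 (0.83, SE 0.51) and Ccl5 (0.70, SE 0.51) had the widest errors and medians below the filter value in both genotypes.

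The interferon level was spread unevenly over the title numbers. The mean centred level of the 98 genes ranged from −0.85 to 2.19 (median 0.03) in E2F2 null tumours and from −0.88 to 0.90 (median −0.23) in wild-type tumours. Most tumours of both genotypes lay within the same range, and 4 E2F2 null tumours exceeded the highest wild-type tumour. The highest was 1 of 3 E2F2 null tumours with title number 3560, at 2.19, while the lowest of those 3 stood at −0.22. The 4 tumours with title number 4010 had a mean of 0.64 and ranged from 0.08 to 1.13. Without title number 4010 the median difference of the antiviral effectors was 0.28, and with each title number counted as 1 mean it was 0.17. With the chromosome 6 level as a covariate it was 0.23, and the difference in Bst2 was 0.41 and in Psmb8 0.91. Against E2F1 null tumours the E2F2 null median of these 48 genes was 0.52, and against E2F3 heterozygous tumours 0.31. These figures share the E2F2 null tumours.

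**Figure D5:**
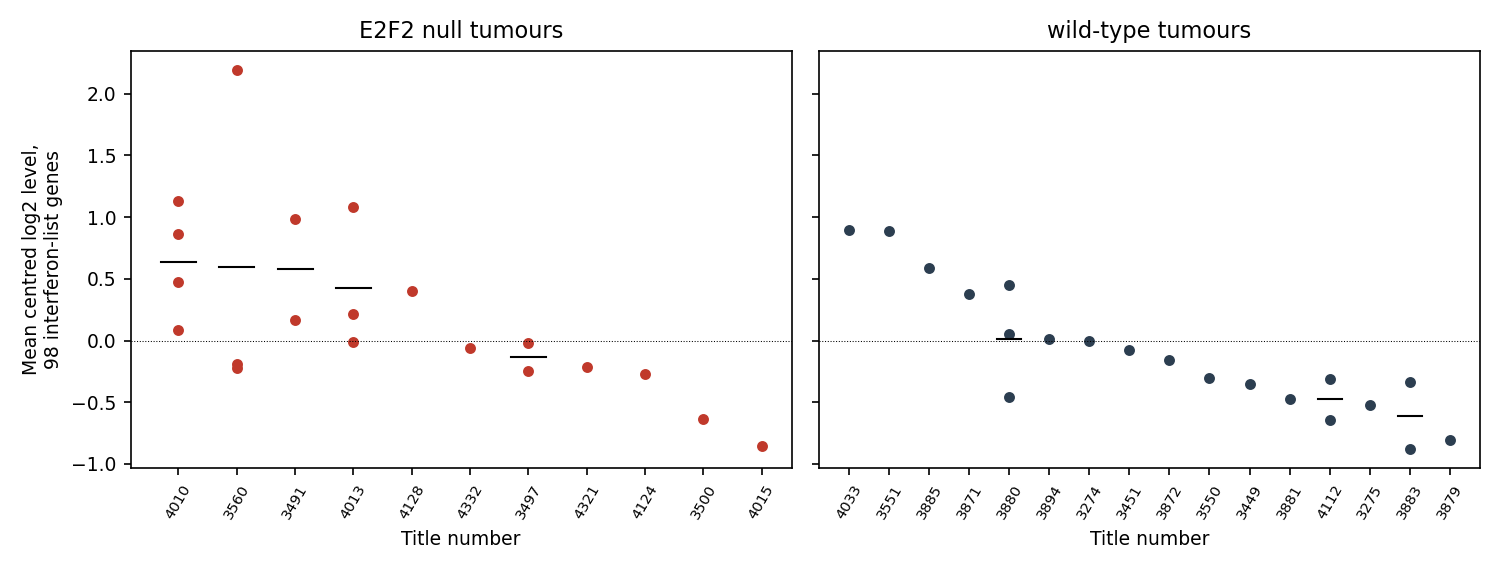
Mean centred log2 level of the 98 tested interferon genes in each tumour, grouped by the number in the sample title and sorted by mean, for E2F2 null tumours (left) and wild-type tumours (right), with the mean as a line where a number has several tumours. The E2F2 null tumours span −0.85 to 2.19 and the wild-type tumours −0.88 to 0.90, and tumours of the same number differ widely.

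Markers of other cell types were compared with the 46.3% of all genes that were higher in E2F2 null tumours. Of 18 tested macrophage and myeloid markers, 3 were higher and 15 lower in E2F2 null tumours, with a mean level per tumour from −0.90 to 0.56 there and from −1.40 to 1.97 in wild-type tumours. All 13 endothelial markers were lower (level −0.68 to 0.59 in E2F2 null tumours, −0.62 to 1.53 in wild-type tumours), as were 14 of 19 fibroblast and collagen genes and all 4 MHC class II genes, none past the test. Milk genes, of which 9 of 12 were higher, spread widely in both groups (−3.18 to 3.18 in E2F2 null and −2.89 to 2.85 in wild-type tumours). Of the luminal epithelial genes 12 of 17 were higher, with a median of 0.12, among them the transcription factor gene Ovol1 (0.45, SE 0.16, unadjusted p = 0.0047, adjusted p = 0.752). Lower were 6 of 8 basal, 5 of 6 squamous and 7 of 9 neutrophil markers, whereas 5 of 7 adipocyte markers were higher and 17 skeletal muscle markers were split into 8 higher and 9 lower. The levels are mean centred log2 values. Of 19 T and NK cell markers only 1 passed the brightness filter, with Cd3d, Cd3e, Cd8a and Ifng below it. The part of these markers in the cell cycle, p53 and interferon differences was not tested. As a sign of RNA quality, the log2 ratio of 3′ to 5′ Gapdh control signals was −0.32 ± 0.08 in E2F2 null tumours and −0.28 ± 0.06 in wild-type tumours (SD, n = 20 each). The same ratio for Actb was 0.68 ± 0.18 in E2F2 null tumours and 0.75 ± 0.20 in wild-type tumours, a stronger signal at the 3′ end in both.

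Set against the other mutant backgrounds, E2F2 null tumours differed in 14 genes from E2F1 null tumours (0.16% of those tested) and in 3 from E2F3 heterozygous tumours (0.0342%). The 14 held Pnrc2, Pink1, Capzb, Pithd1 and Aldh4a1 on chromosome 4, 8 genes on chromosome 2, where E2f1 lies, and Erdr1 on the X chromosome. The 3 were Pnrc2, Pink1 and AW209491, a gene on chromosome 13, where E2f3 lies. AW209491 differed by −0.47 against E2F3 heterozygous tumours and by −0.07 against wild-type tumours. The cell cycle leanings had the same sign in these comparisons, which share the E2F2 null tumours. The mitosis median was 0.15 against E2F1 null and 0.14 against E2F3 heterozygous tumours, and the p53 target median was −0.14 against E2F1 null and −0.15 against E2F3 heterozygous tumours.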

How the data were processed

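Total RNA from 80 whole tumours was hybridised to Affymetrix mouse arrays, 1 array per tumour. The deposited intensity values are linear MAS5 signals made with Affymetrix Expression Console, per the submitters' processing notes. The 2% trimmed mean of each array lies between 500.17 and 500.22, so the arrays had been scaled to a common mean. For an array study the number of arrays limits the precision. Of 22690 probe sets, 64 controls were left out. Of the remaining 22626, 20380 have a single gene symbol in GEO's platform annotation, 691 several and 1555 none.

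Values were used as log2(value + 5). Each gene was represented by its brightest probe set. The fit used limma 3.58.1 (lmFit and eBayes with trend and robust) in R 4.3.3 on all 80 arrays with 4 genotype means, with the title number as a random block (duplicateCorrelation, statmod 1.5.0, correlation 0.16). Tests were two-sided with Benjamini-Hochberg adjustment over all 8769 genes. The p-values thus measure the spread between tumours, with tumours sharing a title number taken as correlated. The labels do not say what that number marks. Samples were grouped by the labelled genotype. A list's level in a tumour is the mean over its tested genes of each gene's log2 value minus that gene's mean. Distances are between RefSeq gene starts on GRCm38.p6.

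Genes named are those called in the gene or probe-set fit, the 10 with the smallest p on and off chromosome 4, up to 3 members of each list with the smallest p in each direction, the E2F family and Myc, plus tissue and cell type markers. Cda, Padi4, Padi3 and Ovol1 were added with their values in view. List members with a difference close to 0 are counted only. The members, lists and tests were chosen with earlier results of these data known. Alternatives were other pseudocounts (1 and 32), no filter or a stricter one, only the 40 arrays, no block, 1 mean per title number, quantile normalization, the mean of all probe sets, the chromosome 6 level as a covariate, and leaving out each title number.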

Additional observations from a re-analysis of the deposited data

How the results depend on the processing

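No paired analysis was possible because the replicate numbers were given in accession order and pair no tumours, and title numbers are not shared between genotypes. Under 10 other settings the comparison with wild-type called 2 to 3 genes, and 0 away from chromosome 4 in each. Leaving out each of 27 title numbers gave 2 to 3 genes, 2 in every case on chromosome 4, and 0 to 1 away from it, the 1 being Csgalnact2 without the wild-type tumour 3894. The number of called probe sets ranged from 6 to 11 when a title number was left out, with 11 without E2F2 null number 4124. Against E2F1 null tumours the count of 14 became 7 with 1 mean per title number, 18 without a block and 19 with the mean of all probe sets, and ranged from 7 to 15 when a title number was left out, being 7 without E2F2 null number 3560 and 9 without E2F2 null number 4332. Against E2F3 heterozygous tumours the count of 3 became 5 without a block, 5 with the mean of all probe sets and 1 with 1 mean per title number. With the mean of all probe sets, Cdc42 differed by 0.10 and Eloa by 0.21, both turned in sign, and Mul1 passed the test at 0.46 (limma adjusted p = 0.000863). E2f1, near 0, turned to 0.020 under quantile normalization, 0.082 with the mean of all probe sets and 0.013 with the chromosome 6 covariate, and ranged from −0.052 to 0.0099 when a title number was left out. The cause of these changes was not tested. The medians of the replication, mitosis and p53 target genes and of the antiviral effectors kept their sign under every setting run. The replication median ranged from 0.12 to 0.22 and the mitosis median from 0.13 to 0.22. The p53 target median ranged from −0.19 to −0.07 and the antiviral median from 0.17 to 0.52. The number of arrays, with a median SE of 0.12 per gene, limits which small differences could be called.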
